A study of Mus musculus with 8 samples.

Results

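Immunoglobulin transcripts were examined in RNA-seq libraries of 7 populations sorted from mouse bone marrow stromal cells and of the input bone marrow. The genes were selected on position, exon length and measured counts: an exon length below 1000 bases, a place on chromosome 6 from 67.5 to 70.75 Mb (the kappa light chain locus) or on chromosome 12 from 113.25 to 116.01 Mb (the heavy chain locus) in GRCm38, and 20 or more counts summed over the 8 libraries. This selection kept 194 genes of the 463 short genes in both windows and of the 49315 genes counted. Of the 194 genes, 100 lay in the kappa locus and 94 in the heavy locus. Because the summed counts chose the genes, the sums are a description only. They had a median of 54.5 and reached 13213 in Igkc. The genes just inside the limit were Igkv13-84 and Igkj4 with 20 counts each, and those just outside were Ighv9-4 and Ighv1-85 with 19 counts each.

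By their labels, all libraries came from wild type C57BL/6J mice at 6 weeks after birth, 1 library per population. The Methods name C57BL/6JJcl mice, and nothing in the labels tells how many mice entered each library. The populations were sorted among cells low in CD31, CD45 and Ter119, which mark endothelial, leukocyte and erythroid cells. Cluster 1 was gated as CD24-, Sca-1+ and CD39+, cluster 2 as Ly-6C-, CD39- and CD24-, cluster 3 as Ly-6C+, CD39/CD54- and CD24+, and cluster 4 as Ly-6C-, CD54+ and CD24-. Cluster 5 was gated as CD54+, CD121b- and CD24/Ly-6C-, cluster 6 as CD24+, Sca-1- and CD39-, and cluster 7 as CD54-, Sca-1+ and CD24/Ly-6C-. The labels of the sorted libraries describe RNA from crushed bone marrow and do not name a sort. The total count on genes was 24205863, 25349917, 27102715, 32549319, 12833648, 31669132 and 33238133 in clusters 1 to 7 and 20162876 in the input. With 1 library per population no difference has a replicate check, and the 95% intervals given here cover counting error only.

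An antibody consists of heavy chains and light chains, and each chain gene is assembled in developing B cells. A variable (V) segment is joined to a joining (J) segment, in the heavy locus with a diversity (D) segment between them, and the product is spliced to a constant gene such as Igkc or Ighm. A B cell and its daughters use 1 V segment per expressed chain, so that a mixed B cell population shows many V segments, whereas a single expanded clone shows few. Stromal cells are not known to rearrange these loci.

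By RefSeq names at the same GRCm38 positions, 173 of the 194 genes were V segments, of which 156 were functional and 17 were pseudogenes. The rest comprised 8 J segments, the D segment Ighd1-1, the kappa constant gene Igkc, and 11 genes with no immunoglobulin segment of RefSeq at their position. Variable segments were thus most genes of the selection, but they held only 19.7% (cluster 5) to 50.3% (cluster 6) of its counts in the sorted libraries and 58.7% in the input. Functional V segments passed the limit on summed counts in 156 of 221 cases (70.6%), V pseudogenes in 17 of 114 (14.9%), J segments in 8 of 8 and D segments, with exon lengths from 10 to 29 bases, in 1 of 20.

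The coding ends of the V segments that led a library are shown because reads can be assigned to a segment only where its sequence differs from that of its relatives. The last 120 bases of the transcripts are taken from GENCODE vM1 (build NCBIM37), with capitals for the codons of the conserved tyrosine, tyrosine or phenylalanine and cysteine that precede the junction with J. The first 4 are the kappa segments with the most counts in at least 1 library. Igkv2-112 had the highest ratio between a library and the next one. Ighv7-1 is the leading heavy segment for which this file holds a transcript.
Igkv15-103: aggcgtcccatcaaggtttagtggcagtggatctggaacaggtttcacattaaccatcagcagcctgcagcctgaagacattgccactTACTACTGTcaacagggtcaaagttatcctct
Igkv19-93: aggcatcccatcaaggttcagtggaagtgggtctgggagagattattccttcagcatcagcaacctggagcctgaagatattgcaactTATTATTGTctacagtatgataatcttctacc
Igkv4-57-1: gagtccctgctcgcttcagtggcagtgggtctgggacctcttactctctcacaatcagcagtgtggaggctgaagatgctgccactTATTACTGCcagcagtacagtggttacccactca
Igkv14-126: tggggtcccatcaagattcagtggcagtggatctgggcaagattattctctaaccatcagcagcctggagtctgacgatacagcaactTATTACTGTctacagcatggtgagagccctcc
Igkv2-112: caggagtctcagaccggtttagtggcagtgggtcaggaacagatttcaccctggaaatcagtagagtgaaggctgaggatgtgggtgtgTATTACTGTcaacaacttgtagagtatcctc
Ighv7-1: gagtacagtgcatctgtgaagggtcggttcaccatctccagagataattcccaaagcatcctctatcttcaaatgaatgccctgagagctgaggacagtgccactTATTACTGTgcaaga
In GRCm38 these genes lie at chr6:68437440-68437925 (+ strand, Igkv15-103), chr6:68736297-68736780 (- strand, Igkv19-93), chr6:69544359-69544907 (- strand, Igkv4-57-1), chr6:67896172-67896642 (+ strand, Igkv14-126), chr6:68219981-68220706 (+ strand, Igkv2-112) and chr12:113896408-113896946 (- strand, Ighv7-1). A transcript was found for 112 of the 173 V segments, for 52 by gene ID and for 60 by symbol only, which was the case for Igkv19-93 and Igkv14-126. Of these 112, 41 had another V transcript of at least 95% identity, so that counts of such segments can be shared with a relative. Relatives were searched only among the 158 V transcripts of this file, which holds protein-coding transcripts. V segments outside it, most pseudogenes among them, were not compared, so a closer relative can exist. Within the file, Igkv15-103 was 76.8% identical to its nearest relative Igkv11-125, and Igkv19-93 was 78.5% identical to Igkv10-94. Ighv7-1, which RefSeq lists as a pseudogene and GENCODE vM1 as a protein-coding transcript, was 94.1% identical to Ighv7-4. Ighv7-4 had 1 count in cluster 4 and none in the other 7 libraries.

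The share of counts on the 194 genes was highest in cluster 7 among the sorted populations and higher again in the input. The selected genes took 91.5, 96.9, 54.1, 99.3, 155.6, 87.0 and 214.3 CPM (counts per 1000000 counts on genes) in clusters 1 to 7, against 429 CPM in the input. The highest sorted share was 3.96-fold the lowest (95% interval 3.75 to 4.19), and this ratio was 2.46 without cluster 3 and 2.88 without cluster 7. In bulk samples, fewer B lineage cells and less RNA per cell cannot be told apart.

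A single gene that is no immunoglobulin segment made most of the share in cluster 5. This gene, AC156953.1 (ENSMUSG00000092746, chr6:69516339-69516629, + strand, 291 exon bases), is a miscellaneous RNA in GENCODE vM1. It had 66, 470, 74, 42, 1185, 102 and 22 counts in clusters 1 to 7 and 44 counts in the input. Cluster 5 and cluster 2 stood apart, with 59.3% and 19.1% of their counts on the selected genes. Without it, cluster 5 fell from the second to the sixth place with 63.3 CPM, cluster 2 had 78.3, and cluster 7 kept the first place with 213.6. Scaling moved this order as well. With TMM factors cluster 5 had 193.1 CPM against 192.4 in cluster 7, and with DESeq2 size factors 207.2 against 187.3, whereas without AC156953.1 cluster 7 was first under each scaling tried.

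**Figure D1:**
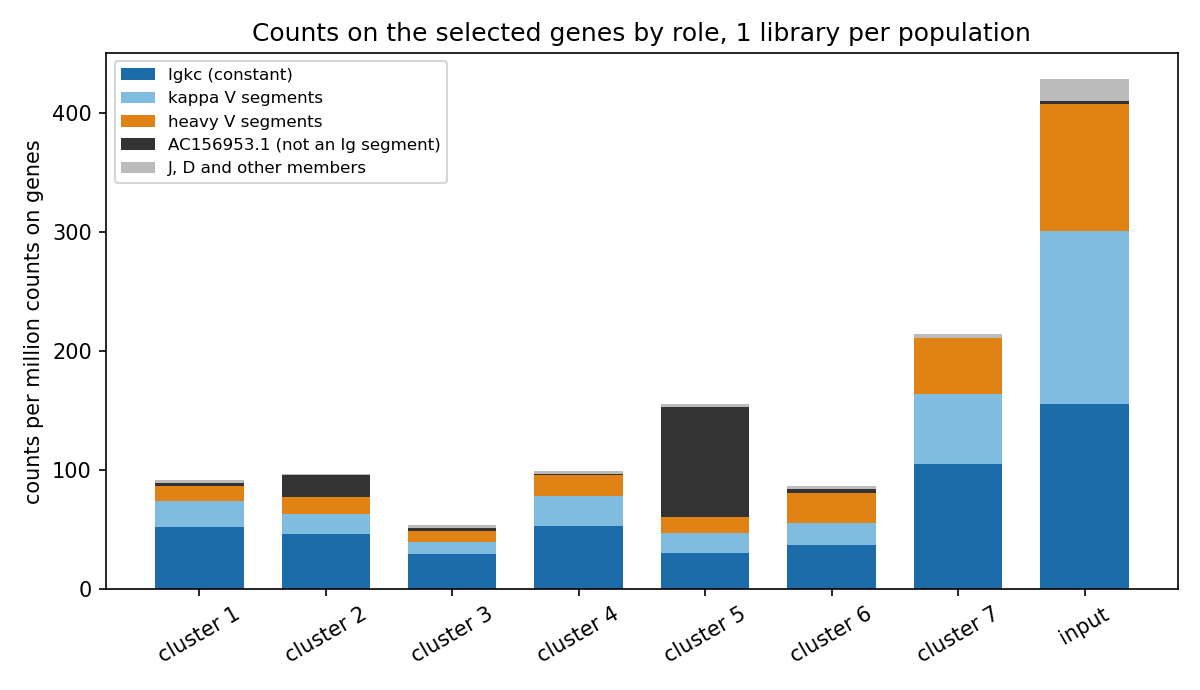
Stacked bars give CPM (y axis) for Igkc, kappa V segments, heavy V segments, AC156953.1 and the remaining genes in each of the 8 libraries (x axis). The input reaches 429 and cluster 7 reaches 214.3, and the dark block of AC156953.1 makes up 59.3% of the bar of cluster 5.

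The kappa constant gene Igkc (ENSMUSG00000076609, chr6:70726435-70726966, + strand, 1 exon of 532 bases) carried more counts than all kappa V segments together in every library. It had 1279, 1177, 801, 1742, 388, 1183 and 3498 counts in clusters 1 to 7 and 3145 in the input. As CPM it ranged among the sorted libraries from 29.6 in cluster 3 to 105.2 in cluster 7, a 3.56-fold range (3.30 to 3.85). Without cluster 7 the range was 1.81-fold, up to cluster 4.

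V segments followed the same extremes with a wider range. They held 818, 781, 532, 1380, 394, 1386 and 3508 counts in clusters 1 to 7 and 5078 in the input. As a share this was 33.8, 30.8, 19.6, 42.4, 30.7, 43.8 and 105.5 CPM in clusters 1 to 7, against 252 in the input. Cluster 7 was 5.38-fold above cluster 3 (4.91 to 5.89) and 2.41-fold above cluster 6, the next library. The range of the V share was 3.44-fold without cluster 3 and 2.23-fold without cluster 7. By total count, the intervals of clusters 1, 2 and 5 overlapped one another, as did those of clusters 4 and 6. This likeness depends on the scaling. With TMM factors clusters 1, 2 and 5 had 28.2, 28.8 and 38.1 CPM, and clusters 4 and 6 had 41.4 and 52.4. The input exceeded cluster 7 by 2.39-fold and cluster 3 by 12.8-fold.

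The balance between the loci differed between populations. Kappa V segments outnumbered heavy V segments in clusters 1 to 5, cluster 7 and the input, from 1.18-fold in cluster 2 to 1.76-fold in cluster 1. Cluster 6 was the only library with fewer kappa than heavy V counts, at 596 against 790. Kappa V segments had 18.8 CPM in cluster 6 and 25.0 in cluster 4, whereas heavy V segments had 24.9 in cluster 6 and 17.4 in cluster 4.

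Of the lambda light chain genes, which lie outside both windows, Iglc3 and Iglv1 were prominent in cluster 6 and others were not. Iglc1, Iglc2, Iglc3 and Iglc4, the lambda constant genes, made 46.6% (44.5 to 48.7) of the light chain constant counts in cluster 6. In the other sorted libraries this share ran from 13.6% in cluster 4 to 37.9% in cluster 5, and it was 26.1% in the input. Both Iglc3 and Iglv1 had more counts in cluster 6 than in any other library. Iglc3 had 148, 167, 80, 99, 102, 695 and 297 counts in clusters 1 to 7 and 362 in the input. The lambda V segment Iglv1 had 43, 141, 31, 60, 32, 467 and 234 counts in clusters 1 to 7 and 254 in the input. Among the sorted libraries Iglc1, Iglc2, Iglv2 and Iglv3 were highest in cluster 7 instead. Iglc2 had an RPKM of 15.3, 14.3, 6.15, 5.22, 10.6, 8.56 and 25.4 in clusters 1 to 7 and 31.8 in the input, and Iglv3 had 1.49 in cluster 6 against 9.95 in cluster 7. Iglc4 had at most 1 count in any library. Iglc2 and Iglc3 have near-identical relatives among the lambda constant genes, and how shared reads were counted is not given in the sources used here.

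J and D segments, the shortest pieces, were close to the limit of detection. The 5 Igkj segments together had 6, 0, 10, 13, 0, 25 and 27 counts in clusters 1 to 7 and 73 in the input. The 3 Ighj segments had 15, 1, 3, 16, 8, 17 and 23 counts in clusters 1 to 7 and 37 in the input. A count of 0 allows up to 0.118 CPM in cluster 2 and 0.234 in cluster 5, with 3 counts taken as the limit, and Igkj segments were not detected there. Single J segments, Igkj1, Igkj2, Igkj3, Igkj4, Igkj5, Ighj1, Ighj3 and Ighj4, had at most 11 counts in any sorted library. Ighd1-1, with 23 exon bases, had 6 counts each in clusters 5 and 7 and 10 in the input.

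Most V segments were seen in cluster 7 and few in cluster 5, partly by depth. Of 173 V segments, 83, 85, 69, 99, 55, 116 and 140 had at least 3 counts in clusters 1 to 7 and 157 in the input. The background of the input was high, since 61.5% of the 1178 olfactory receptor genes, which these cells do not use, had at least 3 counts there, against 23.4% (cluster 5) to 1.53% (cluster 6) in the sorted libraries. The part of this background in the numbers, evenness and levels of V segments in the input was not tested. The expected numbers after thinning each library to the total of cluster 5 were 51.2, 56.3, 32.1, 46.4, 55, 73.3 and 99.8 in clusters 1 to 7 and 154 in the input. Cluster 3 then had the fewest segments instead of cluster 5, and clusters 7 and 6 still had the most among the sorted populations. Over all 194 genes, 90, 91, 77, 109, 63, 130 and 155 had at least 3 counts in clusters 1 to 7, and 177 in the input.

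**Figure D2:**
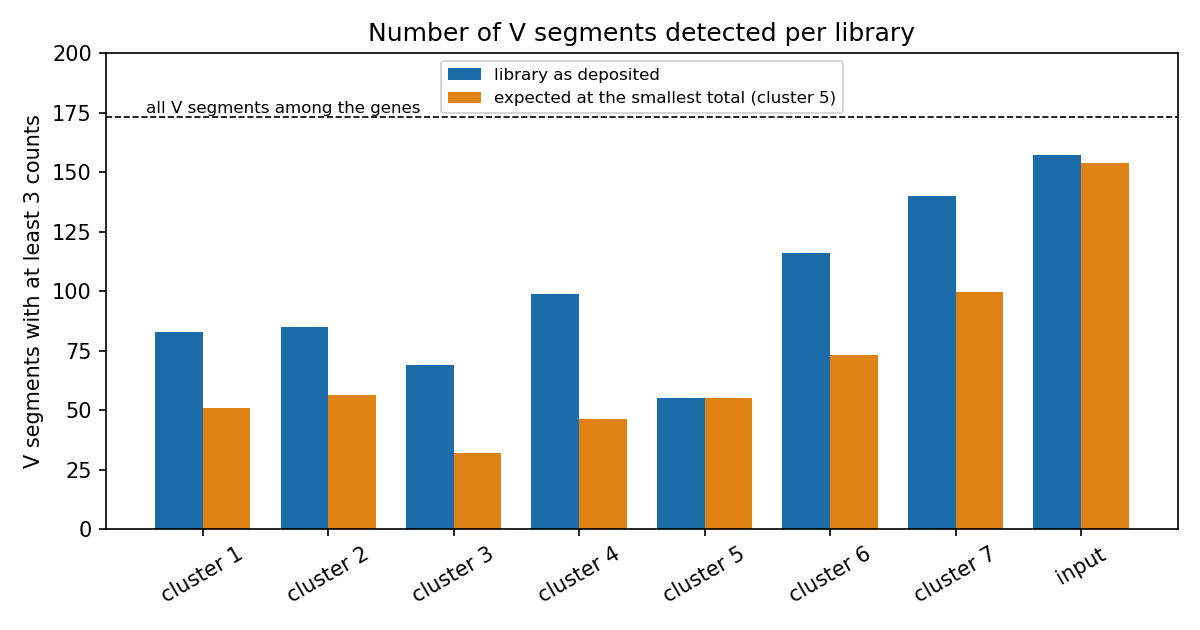
Bars give the number of V segments with at least 3 counts (y axis) per library (x axis), as deposited and after thinning to the total count of cluster 5. Cluster 7 goes from 140 to 99.8 and stays highest among the sorted libraries, and cluster 3 goes from 69 to 32.1 and becomes lowest.

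At an equal number of V counts the order was another one. With 394 V counts drawn from each library, the expected number of V segments with at least 1 count was 100, 103, 101, 98.1, 87, 115 and 102 in clusters 1 to 7 and 125 in the input. Cluster 7 was thus close to clusters 1, 2 and 3 for the same number of V counts, and cluster 6 had the most among the sorted libraries. The inverse Simpson number, which is the number of equally used segments that would give the same evenness, was 26.7, 55.0, 40.3, 19.5, 53.1, 60.6 and 30.9 in clusters 1 to 7. It was 83.5 in the input. Cluster 4 was the least even and cluster 6 the most even sorted library.

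The number of segments that made 50% of the V counts of a locus was smallest in clusters 4 and 7. In the kappa locus it was 7, 10, 7, 4, 11, 13 and 6 in clusters 1 to 7 and 19 in the input. In the heavy locus it was 12, 15, 13, 9, 11, 14 and 8 in clusters 1 to 7 and 14 in the input. In the heavy locus the input was at the level of clusters 2 and 6 by this number. By the inverse Simpson number of the heavy locus the input, at 35.7, was level with cluster 2 at 35.4 and above cluster 6 at 29.2.

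**Figure D3:**
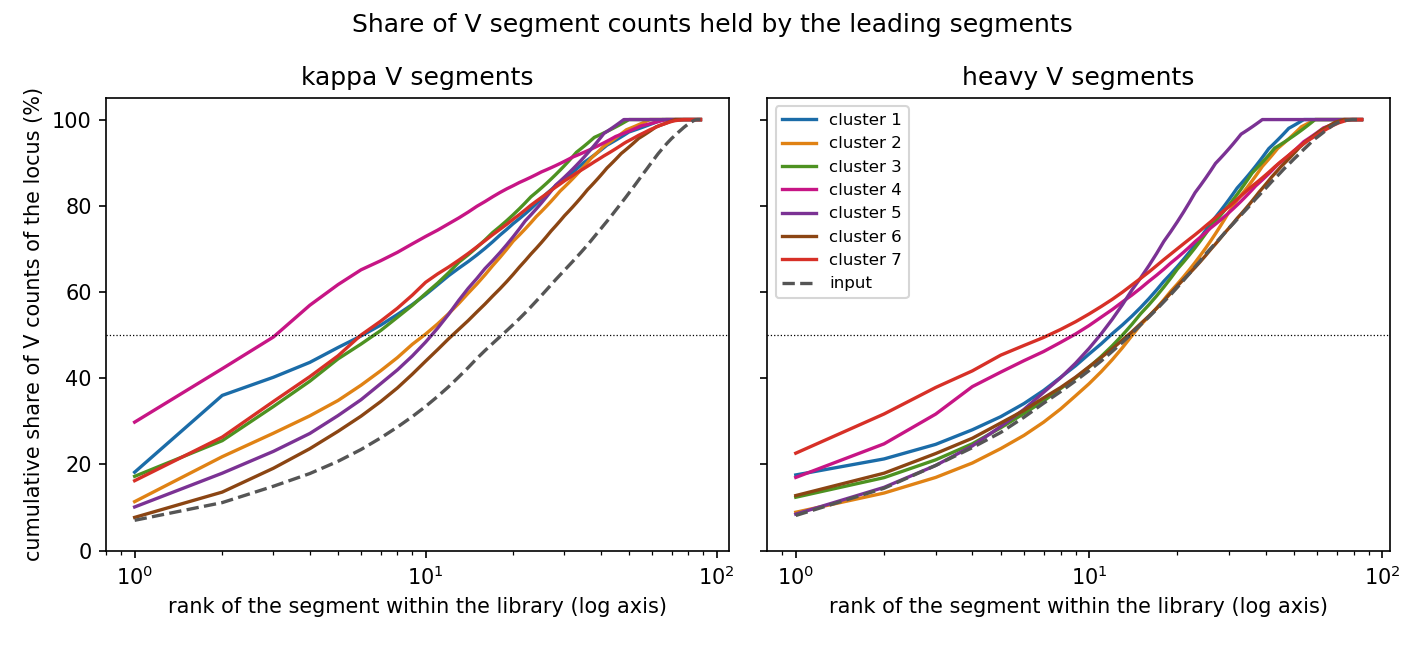
Lines give the cumulative share of the V counts of a locus in percent (y axis) over its V segments ranked by counts within each library (x axis, log scale), for kappa on the left and heavy on the right. The kappa line of cluster 4 starts highest, at 29.8%, that of the input starts lowest, at 7.05%, and the heavy line of cluster 7 starts at 22.6%.

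Single segments led strongly in some populations. Igkv19-93 (ENSMUSG00000098814) held 243 of 815 kappa V counts in cluster 4, a share of 29.8% (26.8 to 33.0), the largest of any V segment in its locus and library. It had 18, 15, 23, 243, 7, 24 and 62 counts in clusters 1 to 7 and 206 in the input, where it also led the kappa locus with 7.05%. This segment was present in every library and stood out among the sorted libraries in cluster 4, with 7.47 CPM against at most 1.87 in the others. The input was higher, with 10.2 CPM. The next kappa segment of cluster 4 was Igkv3-10, with 101 counts there, 2 to 10 counts in the other sorted libraries and 41 in the input. Ighv1-15 led the heavy locus of cluster 4 with 96 of 565 counts (17.0%, 14.1 to 20.3), followed by Ighv2-6 with 44. The 3 leading kappa segments of cluster 4 made 49.6% of its kappa V counts.

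Clusters 1, 2, 3 and 7 shared their leading segment in both loci. Igkv15-103 (ENSMUSG00000076523) was first in the kappa locus with 95, 48, 50 and 316 counts in these libraries. In clusters 4, 5 and 6 it had 0, 0 and 3 counts, and the input had 0. Its share of kappa V counts was 18.2%, 11.4%, 17.2% and 16.2% in clusters 1, 2, 3 and 7. The libraries fell apart into 4 with many counts and 4 with at most 3, with no value between. Cluster 7, with 9.51 CPM, was at least 103-fold higher than cluster 4 and at least 63.9-fold higher than the input, with 3 counts per library taken as the limit for a count of 0.

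Ighv7-1 (ENSMUSG00000076665) was first in the heavy locus of the same 4 libraries. It had 52, 32, 30, 1, 0, 5 and 353 counts in clusters 1 to 7 and 7 in the input. Its share of heavy V counts was 17.6%, 8.91%, 12.4% and 22.6% in clusters 1, 2, 3 and 7. Both segments were thus high and low in the same libraries, and neither was prominent in the input. Igkv15-103 made 64.6% (56.6 to 71.9) of the counts of both in cluster 1, 60% (49.0 to 70.0) in cluster 2 and 62.5% (51.5 to 72.3) in cluster 3. In cluster 7 it made 47.2% (43.5 to 51.0), below the intervals of clusters 1 and 3. Together both made 18.0%, 10.2%, 15.0% and 19.1% of the V counts in clusters 1, 2, 3 and 7. Without them the V share of cluster 7 was 85.4 CPM and still 1.96-fold that of the next library, cluster 6.

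Clusters 5 and 6 had leaders of their own. In cluster 6 Igkv14-126 led the kappa locus with 46 of 596 counts (7.72%) and Ighv1-26 the heavy locus with 101 of 790 (12.8%, 10.6 to 15.3). Igkv14-126 had no lower level in cluster 7, with 58 counts and 1.74 CPM against 1.45 CPM in cluster 6. Ighv1-26 was also the second heavy segment of cluster 7, with 142 counts, and had 3 to 8 counts in clusters 1 to 5. In cluster 5 the leaders Igkv4-57-1 and Ighv1-41 had 22 of 217 and 15 of 177 counts, too few for more than an order. Igkv4-57-1 had 8, 1, 1, 1, 22, 1 and 0 counts in clusters 1 to 7 and 28 in the input.

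The second ranks added further segments to single libraries. Igkv6-15 had 93 counts in cluster 1, 3 to 24 in the other sorted libraries and 111 in the input. In cluster 1 this was within counting error of Igkv15-103. Igkv1-110 had 44 counts in cluster 2, which was likewise within counting error of Igkv15-103 there. Igkv3-2 had 197 counts in cluster 7 against 3 to 16 in the other sorted libraries. Igkv1-135 was second in clusters 3, 5 and 6 and in the input. Some of these segments have close relatives with which counts can be shared. Igkv1-110 was 97.2% identical to Igkv1-117, Igkv1-135 was 96.7% identical to Igkv1-133, and Igkv6-15 was 95.1% identical to Igkv6-13. The remaining second heavy segments, Ighv1-64, Ighv5-4, Ighv9-3, Ighv8-12 and Ighv1-9 in clusters 1, 2, 3, 5 and 6, had between 11 and 41 counts there.

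**Figure D4:**
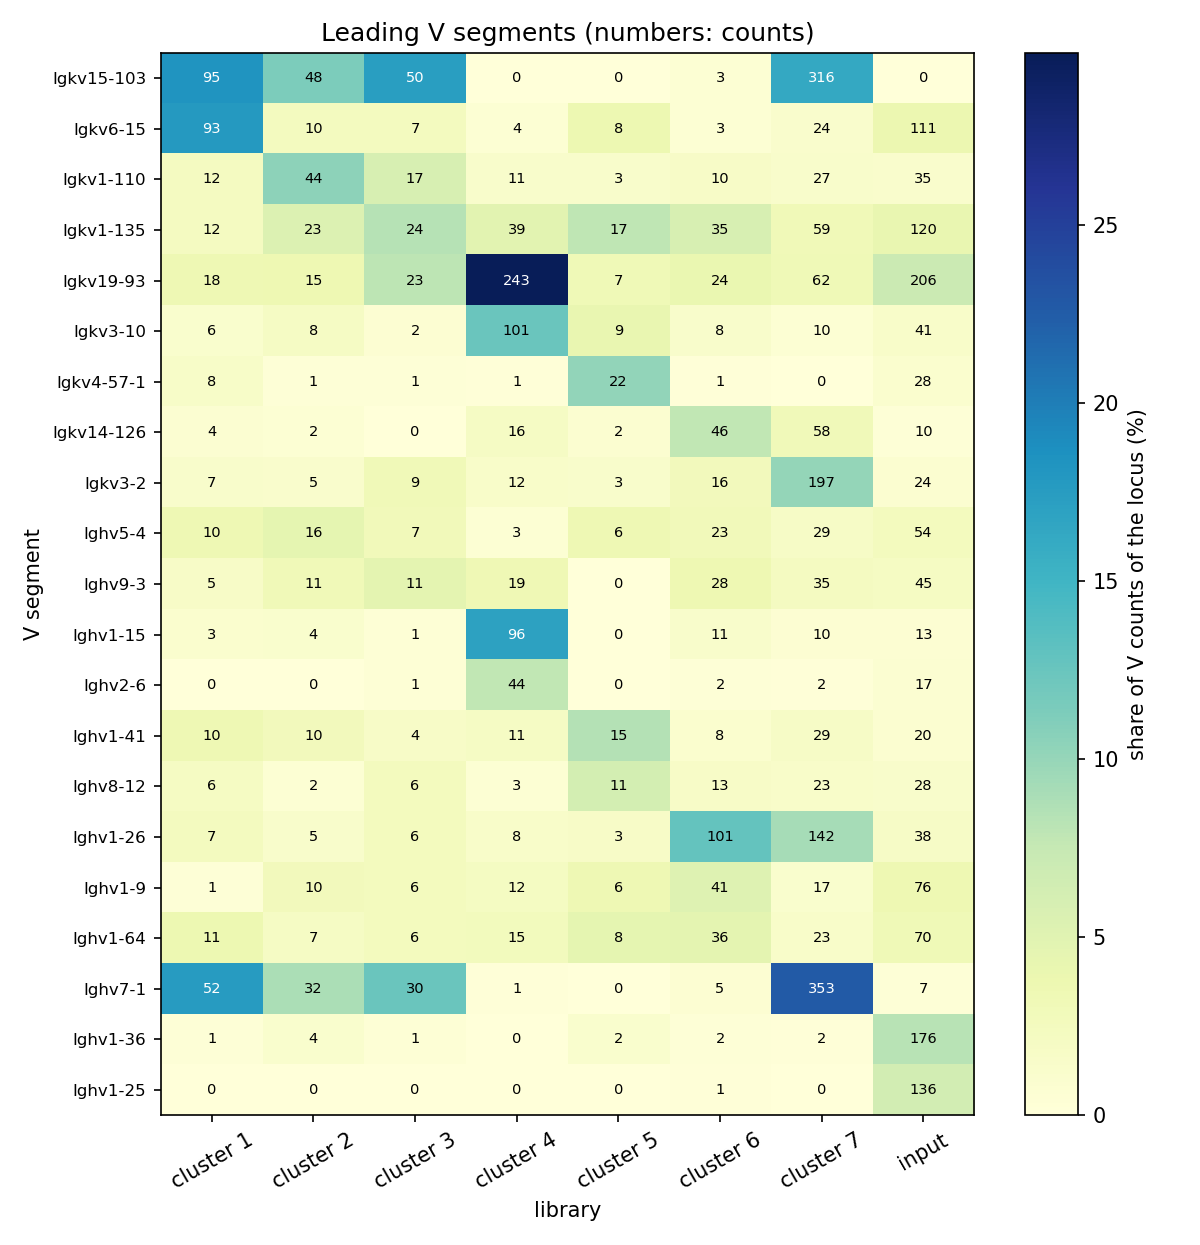
Colours give the share in percent of the V counts of the locus, and numbers the counts, for the 21 V segments that ranked first or second in their locus in at least 1 of the 8 libraries (rows, kappa above heavy). Igkv15-103 and Ighv7-1 are dark in clusters 1, 2, 3 and 7 only, and Igkv19-93 with 243 counts in cluster 4 is the darkest field.

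The leading heavy segments of the input were other ones. Ighv1-36 led it with 176 of 2155 heavy V counts (8.17%) and had 0 to 4 counts in the sorted libraries. Ighv1-25 followed with 136 counts, against 1 count in cluster 6 and 0 in the other 6 sorted libraries. For 129 of the 173 V segments (74.6%) the CPM was highest in the input, for 20 in cluster 7 and for 10 in cluster 5. Counts of the input helped to choose these segments, and the same share over all genes is not given here. The tally is thus a description only. Only 5 V segments of the selection had no count in any sorted library, and these passed the limit through the input alone.

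Between the sorted populations about as much V usage was shared as was not. The shared usage of a pair, the sum over segments of the smaller of both shares, had a median of 46.8% in the kappa locus and 47.1% in the heavy locus over 21 pairs. It was highest between clusters 2 and 3, at 62.4% for kappa and 61.9% for heavy, and lowest between clusters 5 and 7, at 33.5% and 33.7%. Between the input and a sorted library the shared usage was similar. It ran from 42.9% (cluster 7) to 54.7% (cluster 6) for kappa and from 41.9% (cluster 5) to 54.1% (cluster 6) for heavy. Low counts by themselves lower this measure, and cluster 5 had the fewest V counts. Of the 173 V segments, 14 had at least 3 counts in all 7 sorted libraries and 13 in none of them. The 14 included Igkv19-93, Igkv1-135, Igkv12-89, Igkv6-15, Igkv3-2 and Ighv1-26.

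By family, the Ighv1 segments, the largest family of the heavy locus with 43 V segments here, made between 36.0% of the heavy V counts in cluster 3 and 61.8% in cluster 4. Cluster 6 was close to cluster 4 with 61.3%, and the input had 53.6%. The 19 Igkv4 segments made 24.0% of the kappa V counts in cluster 5 and 20.7% in the input. In the other sorted libraries they made between 4.26% in cluster 7 and 11.5% in cluster 4.

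Counts were spread along the whole of both loci. Kappa V segments within 1000 kb of the J segments were 38.6% of the segments and held between 30.6% (cluster 2) and 42.9% (cluster 1) of the kappa V counts, with 37.7% in the input. For heavy V segments the proximal part was 35.3% of the segments and held between 29.1% (cluster 6) and 47.1% (cluster 3) of the counts, with 38.3% in the input. Cluster 7 was close to cluster 3 with 47.0% and holds Ighv7-1 in this proximal part. No library was restricted to one end of a locus.

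**Figure D5:**
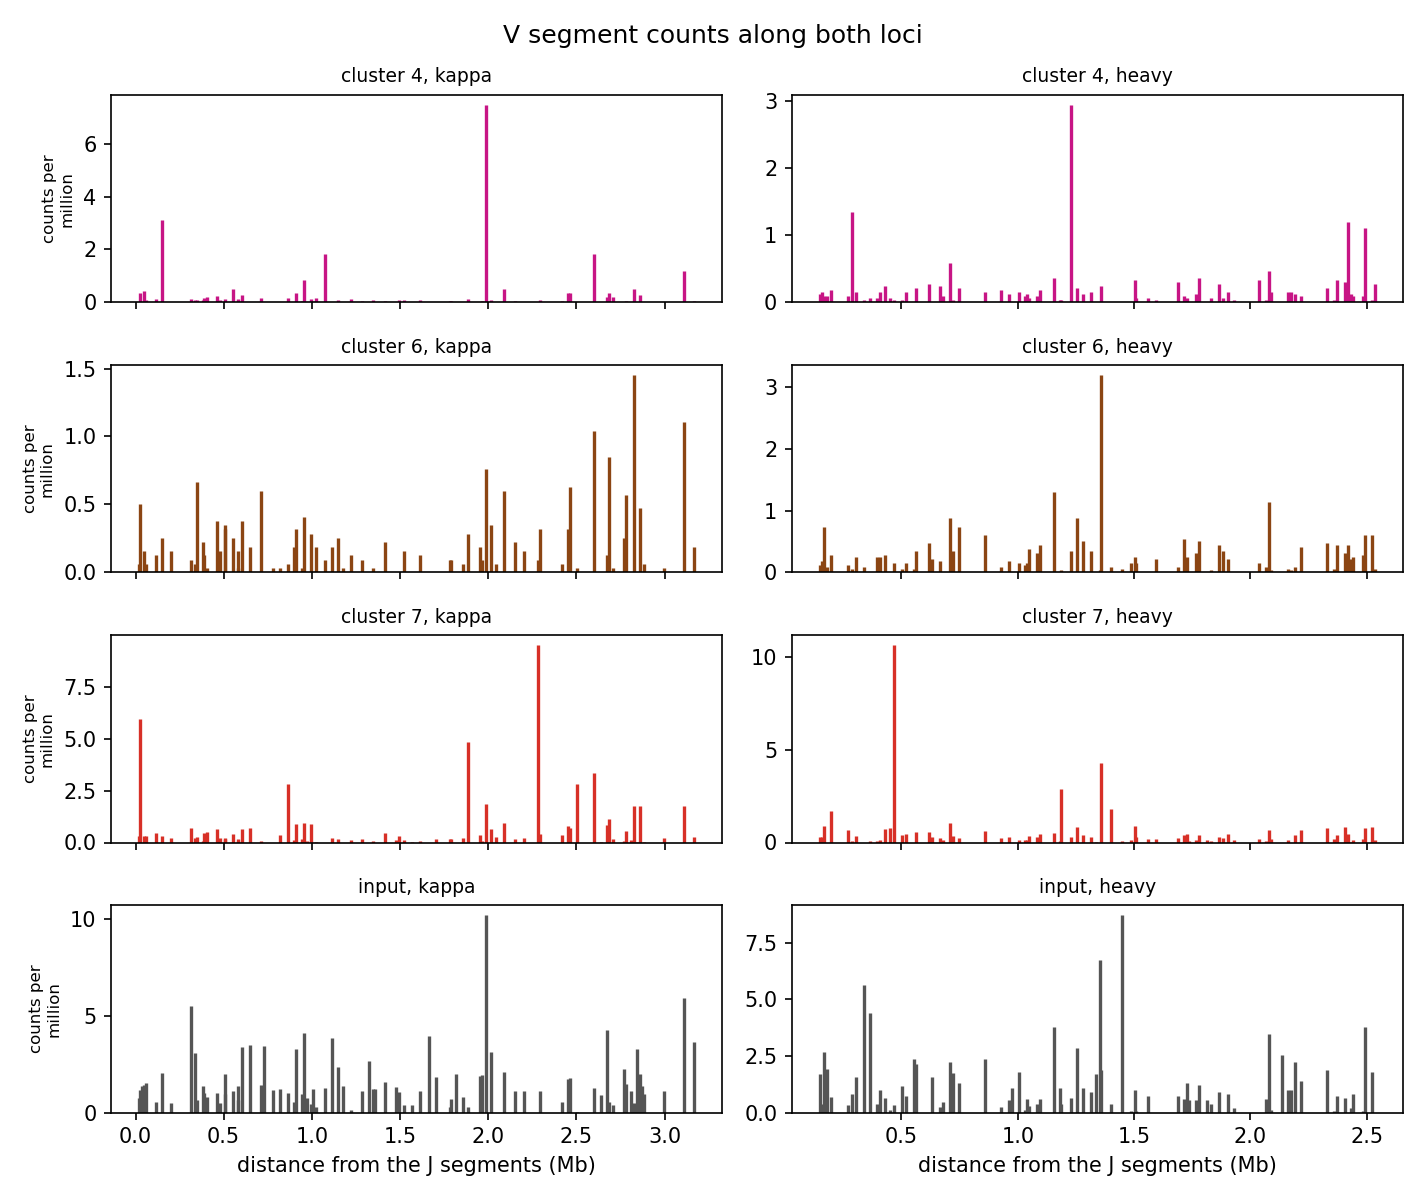
Lines give CPM (y axis, own scale in each panel) of each V segment against its distance from the J segments in Mb (x axis), for clusters 4, 6 and 7 and the input, kappa on the left and heavy on the right. Counts lie along both loci in each library, and single segments such as Igkv19-93 in cluster 4, Igkv15-103 and Ighv7-1 in cluster 7 and Ighv1-26 in cluster 6 rise above the rest.

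Genes specific to a population were counted next. The limits were an RPKM (CPM per kb of exon) above 2 and a value of RPKM + 1 that exceeded the next-highest sorted library by more than 2-fold. Of the 194 genes, 55 passed the RPKM limit in some sorted population, many of them through their highest library only, so that the limit favours genes that differ. The counts below are a description of size, without a test. In cluster 7, 11 of the 55 genes were specific, against 0.793% of the 12360 genes that passed the RPKM limit in any sorted population. In cluster 4 there were 5 of 55, against 0.299% of all genes, and in cluster 5 there were 3 of 55, against 1.79%. In cluster 1 there was 1 of 55, against 0.316%. Clusters 2, 3 and 6 had 0 of 55 each, against 1.3%, 0.574% and 0.324% of all genes. At such low rates a count of 0 of 55 says little about clusters 2, 3 and 6. With TMM factors cluster 6 had 1 specific gene. With RPKM + 0.1 in place of RPKM + 1 clusters 2 and 6 had 1 each, and with DESeq2 size factors cluster 5 had 6.

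Among those with at least 50 counts, the highest ratios of cluster 7 to the next library were those of Igkv2-112 and Igkv3-2. Igkv2-112 had 94 counts in cluster 7, 1 count in clusters 1, 2, 4, 5 and 6 and in the input, and 0 in cluster 3. A segment of cluster 7 was thus nearly absent from the input library. Its RPKM was 7.83 in cluster 7. In cluster 4 the highest ratios were those of Igkv4-53, with 60 counts there, at most 3 in any other sorted library and 26 in the input, and of Ighv1-15. In cluster 1 the specific gene was Igkv6-15. In cluster 5 AC156953.1, at an RPKM of 317 against 63.7 in cluster 2, was the only one with at least 50 counts, and the others were Igkv4-57-1 and Ighd1-1. Igkv4-57-1 had 22 counts there. Ighd1-1 had 6 counts in cluster 5 and 6 in cluster 7, so that its call rests on the difference in library totals.

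Other genes of the B lineage were present in every sorted library, and their summed levels were highest there in cluster 7. The 12 B progenitor genes, among them Rag1 and Rag2 of the recombinase, Vpreb1 and Igll1 of the surrogate light chain and the signalling chains Cd79a and Cd79b, had at least 3 counts in each library. Their summed RPKM was 89.1, 91.6, 49.8, 73.5, 60.8, 91.3 and 128.5 in clusters 1 to 7 and 296 in the input, with Cd79a or Cd79b the most abundant. Ebf1, which stromal cells also express, had 3708 counts in cluster 3 and 2296 in the input. The 9 mature B cell genes, with Cd72 the most abundant, all had at least 3 counts in each library and summed to 16.2, 18.1, 5.96, 11.4, 8.02, 18.7 and 24.2 RPKM in clusters 1 to 7 and 68.3 in the input. Clusters 7 and 3 were thus the highest and the lowest sorted library for both lists, as they were for V segments. The part of B lineage cells in the V counts was not tested.

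Heavy constant genes, longer than the limit and so outside the selection, were dominated by Ighm. It had 4332, 4045, 2741, 4890, 1360, 6497 and 10580 counts in clusters 1 to 7 and 10542 in the input. Of the 8 heavy constant genes listed, 7 were matched, and Ighg1 and Ighe had at most 2 counts in any sorted library. Igha, the constant gene of IgA, had 20, 161, 16, 350, 55, 308 and 590 counts in clusters 1 to 7 but 8 in the input. Jchain, which links antibody monomers in secreted IgA and IgM, had 86, 115, 68, 188, 38, 108 and 597 counts in clusters 1 to 7 and 7 in the input. Per length, Igha reached an RPKM of 6.65 in cluster 7 and 0.149 in the input, and Jchain 7.14 and 0.138. Both were thus lower in the input than in any sorted library, unlike the V segments. For Igha the gap between cluster 3 and the input rests on 16 against 8 counts, too few for more than an order. Among the sorted libraries both were highest in cluster 7 and lowest in cluster 3, at an RPKM of 0.221 for Igha and 0.997 for Jchain, which are the extremes of the V segments too.

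The list of 10 plasma cell genes, which includes Jchain, did not share this pattern as a whole. At least 9 of the 10 genes had 3 counts or more in each library, and the RPKM summed over the list, Jchain included, was 160, 284, 232, 181, 115, 247 and 197 in clusters 1 to 7 and 186 in the input. Xbp1 or Fkbp11, which other secretory cells use as well, was the most abundant. Tnfrsf17 was at 0 in clusters 1, 2 and 6, and Derl3 was at 0 in cluster 5. Unlike Jchain, Tnfrsf17, Mzb1, Pou2af1, Prdm1 and Irf4 each had their highest RPKM in the input. Tnfrsf17 had 4.32 there against 0.86 in cluster 5, its highest sorted library. Mzb1 had 16.6 in the input against 10.9 in cluster 2. Fkbp11 was lowest in the input, like Jchain, and Sdc1, Xbp1 and Derl3 were neither highest nor lowest there.

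Transcripts of other haematopoietic cells accompanied those of B cells. Ptprc, which encodes CD45, the marker used for depletion, had RPKM 2.92, 2.58, 1.69, 2.76, 1.80, 4.02 and 9.26 in clusters 1 to 7 and 13.5 in the input. Among the sorted libraries it was thus highest in cluster 7 and lowest in cluster 3, like the V segments. The 8 myeloid genes, with S100a9 the most abundant in each library, summed to 14914, 16847, 11334, 18815, 26679, 16538 and 32444 RPKM in clusters 1 to 7 and 48087 in the input. The 6 erythroid genes summed to 14562, 13322, 7328, 2260, 68505, 1591 and 7411 RPKM in clusters 1 to 7 against 689 in the input, and were thus higher in each sorted library than in the input. The 9 T cell genes summed to between 2.96 RPKM (cluster 3) and 10.9 (cluster 2) among the sorted libraries and to 29.6 in the input, with Trbc2, Cd4 and Cd8a at 0 in cluster 5. The 5 endothelial genes summed to between 2.31 in cluster 6 and 11.1 in the input. All 8 stromal genes had at least 3 counts in each library and summed to between 4611 (cluster 4) and 22068 (cluster 6) RPKM in the sorted libraries, against 2067 in the input. The part of these cells in the results was not tested.

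The level of V segments was also compared with that of the olfactory receptor genes. The functional V segments of the selection had 299-fold the pooled RPKM of olfactory receptor genes in cluster 6, 335-fold in cluster 7, and 9.26-fold in cluster 5. In the input they had 6.51-fold, so that many V segments there were near the level of genes not used. The limit on summed counts chose these V segments but not the olfactory receptor genes, which raises the ratio. For all 221 annotated functional V segments it was 225-fold in cluster 6, 245-fold in cluster 7, 7.30-fold in cluster 5 and 4.84-fold in the input. Of the 157 V segments with at least 3 counts in the input, 91 exceeded the 95th percentile of olfactory receptor genes, measured in counts per kb.

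T cell receptor segments served as a second comparison. The 46 such segments of the same length and count limits had 15, 221, 62, 57, 38, 57 and 33 counts in clusters 1 to 7 and 2048 in the input. In cluster 2, 177 of the 221 counts were on Trdj1. V segments had 54.5, 3.53, 8.58, 24.2, 10.4, 24.3 and 106 counts for each count on T cell receptor segments in clusters 1 to 7, against 2.48 in the input. The ratio was thus above that of the input in each sorted library, by little in cluster 2 and by most in cluster 7. The T cell receptor segments had most of their counts in the input, so that the limit chose many of them through it. This favours a low ratio in the input, and the difference from the input is a description only.

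Over the 8 libraries, the genes outside both windows whose log2(RPKM + 1) was most like that of the summed RPKM of the 194 genes were Gm5150 (Pearson r = 0.976), Gm9870 (r = 0.975) and Gm12250 (r = 0.974), among 20079 genes. For the V segments alone, a comparison added after the values were seen, they were Clec7a (r = 0.996), Lilrb3 (r = 0.995) and Clec4a3 (r = 0.995). The points share the library and its total count, and the input weighs most.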

How the data were processed

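The RNA-seq data comprised 1 library for each of 7 sorted populations and 1 for the input. The authors deposited raw counts per Ensembl gene with exon positions and exon lengths. According to the Methods, polyA-selected RNA was sequenced in pairs and mm9 was the reference for alignment with TopHat2, whereas the deposited positions are those of GRCm38, and the submitters' processing notes name Partek 2.2. The counting tool, strandedness and treatment of reads shared between similar segments are not given in the sources used here, and such reads may be lost or split.

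The genes, lists and comparisons were chosen with earlier results of these data known. Names were taken from RefSeq GRCm38.p6 by position (overlap of at least 0.5 of the joint length), which named 186 of the 194 genes, and the name table gave 65 a symbol. RPKM used the exon length and the sum of all counts of a library. Shares have 95% Wilson intervals, ratios have log-normal Poisson intervals, and expected numbers at a smaller total are hypergeometric. Because each population had 1 library, no test was used and no p-value is given. edgeR and DESeq2 gave scaling factors only. Relative to the total count, TMM moved log2 values of clusters 1, 5, 6 and 7 by -0.26, 0.31, 0.26 and -0.16, and DESeq2 by -0.27, 0.41, 0.26 and -0.19. The named genes are the J, D and constant genes, the 2 leading kappa and heavy V segments per library, the 2 specific genes per library of the highest ratio with 50 counts or more, the 2 genes on each side of the limit and the marker lists. Others were named after their values were seen. V transcripts of NCBIM37 were aligned pairwise over at least 250 bases, and coordinates were not converted between builds. Promoters and recombination signals of these segments were not analysed here. The calculations were tested on simulated counts. Alternatives comprised other scalings, other limits on counts, other sets of genes and omission of each library. The software was R 4.3.3 with edgeR 4.0.16 and DESeq2 1.42.0, and Python 3.11.15 with scipy 1.17.1 and pandas 2.3.3.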

Additional observations from a re-analysis of the deposited data

How the results depend on the processing

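No paired analysis was possible because the design holds 1 library per population. Of 78 alternatives to the 5 leading values, 58 stayed within the counting interval of the main value (for the ratio and the share of 1 V segment) or within 1.5 times of it (for numbers of genes). This tally is no measure of robustness. Leaving out a library that did not set an extreme value returned that value by construction, and so did some subsets of segments. With DESeq2 size factors the ratio was 3.99, but cluster 5 took the place of cluster 7 as the highest library. The ratio of the highest to the lowest share, 3.96, was 4.34 with Lars2, Rn18s-rs5 and mmu-mir-689-2 left out of the total and 3.63 with TMM factors (cluster 5 first in both). It was 5.11 without Igkc, again with cluster 5 first (125.4 CPM against 109.1 in cluster 7). It was 5.38 for V segments, with cluster 7 first, for which it was 5.31, 4.90 and 4.89 with that reduced total, TMM and DESeq2 factors and 5.12 without Igkv15-103 and Ighv7-1, the last 4 chosen after seeing the data. Leaving out each library in turn gave 2.46 (without cluster 3) to 3.96, with 2.88 without cluster 7. The lowest number of genes detected, 63, became 98 at 1 count, 7 at 10 counts and 37.3 at the smallest total, and 63 to 77 with libraries left out. The highest number, 155, became 88 among genes with 50 or more counts and 84 at 10 counts, and 130 to 155 with libraries left out. The highest share of 1 V segment, 29.8%, became 61.8% for families (Ighv1, cluster 4), 22.6% in the heavy locus and 68.2% over all genes of a locus (Igkc, cluster 1), and 22.6% to 29.8% with libraries left out. The 20 specific genes became 11 at 4-fold, and 16 to 25 with libraries left out. Segments with under 3 counts in a library, among them most J segments, are beyond what this depth shows.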
